A study of Mus musculus with 16 samples.

Results

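The clustered histone genes of the mouse were examined in 16 bulk lung tumors. They were taken as every gene of the deposited table whose symbol starts with Hist1h, Hist2h, Hist3h or Hist4h, which gave 67 of 24016 genes. Of these, 53 carry Hist1 symbols, 10 Hist2, 3 Hist3 and 1 Hist4. By protein class, 6 encode the linker histone H1, 18 encode H2A, 18 H2B, 12 H3 and 13 H4, with pseudogenes counted under the class in their symbol. RefSeq places 52 of the Hist1 members on mouse chromosome 13, the 10 Hist2 members on chromosome 3, the 3 Hist3 members on chromosome 11 and Hist4h4 on chromosome 6.

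The H2A, H2B, H3 and H4 proteins form the core of the nucleosome, and H1 binds the linker DNA between nucleosomes. Most clustered histone genes are transcribed in S phase, when new DNA must be packaged, and their RNAs end in a conserved stem-loop in place of a poly(A) tail. The stem-loop is bound by Slbp, and transcription is driven by Npat at histone locus bodies. Outside the clusters lie genes of replication-independent variants, such as H3f3a and H3f3b for H3.3 and H2afz for H2A.Z, whose RNAs are spliced and polyadenylated. Small cell lung cancer, the labelled tumor type, is a fast-cycling neuroendocrine cancer in which the RB pathway, a brake on S phase entry, is lost.

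All tumors came from H11 LSL-Cas9 mice (B6;129-Igs2tm1(CAG-cas9*)Mmw/J), which carry a Cas9 transgene that Cre switches on. The mice received adenovirus through the trachea at an age of 2 to 4 months, and tumors were taken at the endpoint of the study. The virus was labelled sgControl RPP for 8 tumors and sgKdm5a RPP for the other 8. The labels do not spell out RPP, which both groups share; known work on the model gives it as guides to Rb1, Trp53 and Rbl2, so control tumors carry those edits too. Each column was headed by a mouse number, so each library was treated as 1 animal, and where the tumor lay in the lung or whether tissue was pooled is not given in the sources used here. The study's labels pose the question of how an added sgRNA against Kdm5a, which encodes a histone H3 lysine 4 demethylase, changes the RNA of such tumors.

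Values were FPKM, which count fragments relative to transcript length and to the size of the library, from stranded total RNA libraries. Depth is unknown. The library of sgControl RPP tumor 1 (mouse 232) stood apart: its median over tested genes was 2.38 FPKM, against 10.0 to 12.3 in the other 15, and a single microRNA entry, Mir6236, held 904068 FPKM, which was 88.9% of its summed FPKM. In the other 15 the top entry held 5.76% to 15.2%. The main comparisons between labels are given with and without it, and other values include it. Kdm5a ran from 3.28 to 8.06 FPKM in the sgControl-labelled tumors and from 8.16 to 17.3 FPKM in the sgKdm5a-labelled tumors, so it was higher in every tumor labelled for the guide against it (log2 difference 0.84, limma adjusted p = 0.852). RNA summed over a gene does not show whether its coding sequence was edited, and the groups are named by their labels throughout. The neuroendocrine markers named here were above 0 in every tumor. Syp, a synaptic vesicle protein, ran from 3.02 to 144 FPKM in the sgControl-labelled and from 41.3 to 94.6 FPKM in the sgKdm5a-labelled tumors, and Insm1, a neuroendocrine transcription factor, from 21.6 to 181 and from 75.9 to 201 FPKM. Dll3, a Notch ligand, was lowest in sgControl RPP tumor 1, at 0.227 FPKM. Chga, a protein of secretory granules, was 299 ± 185 FPKM (SD, n = 8) in the sgControl-labelled and 968 ± 554 FPKM in the sgKdm5a-labelled tumors (log2 difference 1.77, and 1.42 without tumor 1, limma adjusted p = 0.852 with all tumors). Chga does not stand for the list of 8 neuroendocrine markers, whose median log2 difference was 0.46, against 0.21 over all tested genes. Without tumor 1 these medians were 0.06 and -0.01.

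The stem-loop of the RNA 3′ end was located in the annotated transcripts, since it is the feature that sets these genes apart from other genes. The 16-base histone stem-loop, with some stem and loop letters free, was searched on the sense strand of all GENCODE vM21 transcripts. In members the search began at the end of any annotated coding sequence, and 44 of the 67 (65.7%) held a match. Over the annotation it covered whole transcripts, and 193 of 55341 genes (0.349%, over transcripts of differing length) held one, so the shares rest on unlike stretches. A transcript annotated only to its coding end could hold no match. The form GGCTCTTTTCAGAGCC occurred in 26 members, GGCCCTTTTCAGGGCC in 7 and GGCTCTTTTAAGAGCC in 6. Sites are shown for the members of highest level that hold one and for the members on which the comparisons below turn, with the 16 bases of the stem-loop in capitals and 5 bases on each side:
Hist3h2ba: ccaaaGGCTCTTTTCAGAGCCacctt
Hist3h2a: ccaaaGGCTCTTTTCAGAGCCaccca
Hist1h1c: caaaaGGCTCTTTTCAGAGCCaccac
Hist1h2bg: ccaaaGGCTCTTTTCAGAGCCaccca
Hist1h2bf: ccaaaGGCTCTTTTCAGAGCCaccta
Hist1h4d: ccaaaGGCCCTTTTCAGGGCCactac
Hist1h4h: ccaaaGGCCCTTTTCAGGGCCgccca
Hist1h2bk: ccaaaGGCTCTTTTAAGAGCCactaa
Each of these sites has the bases aaa just before the stem, and the H4 members Hist1h4d and Hist1h4h share a stem that the H1, H2A and H2B members shown do not have. The annotated transcripts of Hist3h2ba, Hist3h2a and Hist1h1c ran on for 169, 1643 and 840 bases after the stem-loop. Those of Hist1h2bg, Hist1h4d and Hist1h2bf ran on for 155, 770 and 29 bases. The annotated transcripts of Hist1h2bc, Hist2h2be and Hist3h2bb-ps, which are also among the 6 members of highest level, held no match. A match is a description of the annotation, and the data do not show which 3′ end was used in the tumors.

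Promoters, from 250 bases before to 50 after the RefSeq start, were at hand for 60 members (GRCm38.p6) and were read on both strands. The letters CCAAT, a site known to bind NF-Y, were found in 51 of 60 (85.0%), against 37.9% of all 27025 promoters of the table. They were in all 6 H1, 17 H2A, 15 H2B and 10 H3 promoters but in 3 of 12 H4 promoters. TATAAA was found in 35 of 60 (58.3%, against 14.2%). The octamer ATTTGCAT, known to bind POU factors such as Pou2f1, was found in 7 of 17 H2A and 6 of 15 H2B promoters and in none of the H1, H3 and H4 promoters (21.7% of the 60, against 1.75% of all). Divergent H2A and H2B pairs can share bases of a window, so these promoters are not independent. A promoter of each kind is shown for members described below, with matches to the 3 motifs in capitals on either strand: Hist3h2ba (chr11:58948661-58948960, plus strand) and Hist3h2a (chr11:58954435-58954734, plus strand) from the same cluster, Hist1h2bg (chr13:23571150-23571449, plus strand) with all 3 motifs, and Hist1h4h (chr13:23530794-23531093, plus strand) with none.
Hist3h2ba: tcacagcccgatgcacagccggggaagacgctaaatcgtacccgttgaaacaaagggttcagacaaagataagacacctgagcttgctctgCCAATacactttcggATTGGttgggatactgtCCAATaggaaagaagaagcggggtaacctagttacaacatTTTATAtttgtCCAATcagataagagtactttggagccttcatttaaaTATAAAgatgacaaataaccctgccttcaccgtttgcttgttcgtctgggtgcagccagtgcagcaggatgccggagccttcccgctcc
Hist3h2a: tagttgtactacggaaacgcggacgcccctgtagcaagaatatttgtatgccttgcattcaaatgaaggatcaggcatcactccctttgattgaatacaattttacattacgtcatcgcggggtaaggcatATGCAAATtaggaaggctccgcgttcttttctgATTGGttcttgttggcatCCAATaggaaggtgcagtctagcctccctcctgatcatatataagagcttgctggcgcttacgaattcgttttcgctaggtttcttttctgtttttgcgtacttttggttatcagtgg
Hist1h2bg: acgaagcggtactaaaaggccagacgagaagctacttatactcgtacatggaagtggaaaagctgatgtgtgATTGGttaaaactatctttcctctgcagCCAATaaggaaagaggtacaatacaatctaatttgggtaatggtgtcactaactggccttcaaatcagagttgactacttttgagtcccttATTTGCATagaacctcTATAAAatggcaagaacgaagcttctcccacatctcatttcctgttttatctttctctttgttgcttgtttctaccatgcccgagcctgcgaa
Hist1h4h: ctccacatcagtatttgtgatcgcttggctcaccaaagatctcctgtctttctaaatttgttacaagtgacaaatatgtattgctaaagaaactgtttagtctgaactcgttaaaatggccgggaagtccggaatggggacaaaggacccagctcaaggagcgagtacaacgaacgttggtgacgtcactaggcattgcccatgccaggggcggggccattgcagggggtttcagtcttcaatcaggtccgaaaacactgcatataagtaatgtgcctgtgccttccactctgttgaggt

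Most clustered histone genes were at low levels in these libraries, and a few members carried most of the signal. By median FPKM over the 16 tumors, 4 members reached 10 FPKM, 26 reached 1 FPKM and 41 did not, and 9 were below 1 FPKM in every tumor. The median of the member medians was 0.854 FPKM. Hist3h2ba, an H2B gene, was highest at a median of 76.8 FPKM, ahead of Hist1h2bc (H2B, 44.8), Hist3h2a (H2A, 38.3) and Hist1h1c (H1, 19.0). Hist2h2be (H2B) followed at 9.81, Hist3h2bb-ps, named as a pseudogene, at 9.37, Hist1h2bg (H2B) at 6.36 and Hist2h2aa1 (H2A) at 5.54. The tumors' ranges of these neighbours overlapped throughout that order. The 5 highest members held a median of 71.3% of the summed FPKM of all 67, with a range of 39.5% to 77.7% in the 15 tumors other than sgControl RPP tumor 1 and 25.9% in that tumor.

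H2B members made up a median of 64.0% of the summed member FPKM (47.3% to 71.5%). H3 members made up 2.45% and H4 members 5.77% at the median, although the nucleosome holds the core histones in equal numbers. Near-identical copies limit these levels. Of the 67 members, 31 had over 50% of their 50-base windows also present in the transcripts of other genes, and the median share was 73.0% for H2A, 62.0% for H3, 44.0% for H2B, 39.5% for H4 and 1.13% for H1. How reads with several matches were counted is not given in the sources used here, and neither is the use of strand. Hist2h3c1 and Hist2h2aa2 were under 0.01 FPKM in every tumor, and every window of either is shared with another gene. Hist2h2aa1 shared 89.4% of its windows, Hist1h2bf 65.8%, Hist1h2bg 49.7%, Hist3h2a 31.5%, Hist1h2bc 30.1%, Hist3h2ba 22.1% and Hist1h1c 8.54%.

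A histone H1 variant and 2 core histone genes are known as specific to the testis. Hist1h1t reached 0.67 FPKM at most and was listed at 0 in 10 tumors, and Hist1h2aa was listed at 0 in 15 tumors and at 1.06 FPKM in sgControl RPP tumor 1. Hist1h2ba ran from 0.45 to 4.54 FPKM in the sgControl-labelled and from 0.43 to 2.36 FPKM in the sgKdm5a-labelled tumors.

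The summed level of the 67 members varied over a 10.9-fold range between tumors. It was 907 FPKM in sgControl RPP tumor 3 (mouse 233) and 83.5 FPKM in sgKdm5a RPP tumor 8 (mouse 236). Among the sgControl-labelled tumors the lowest, median and highest sums were 188, 329.7 and 907 FPKM, and the median was 261.4 without tumor 1. Among the sgKdm5a-labelled tumors they were 83.5, 294.3 and 543 FPKM. The groups overlapped over most of their range. In bulk tumors, fewer cells of a type and less RNA per cell cannot be told apart.

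**Figure D1:**
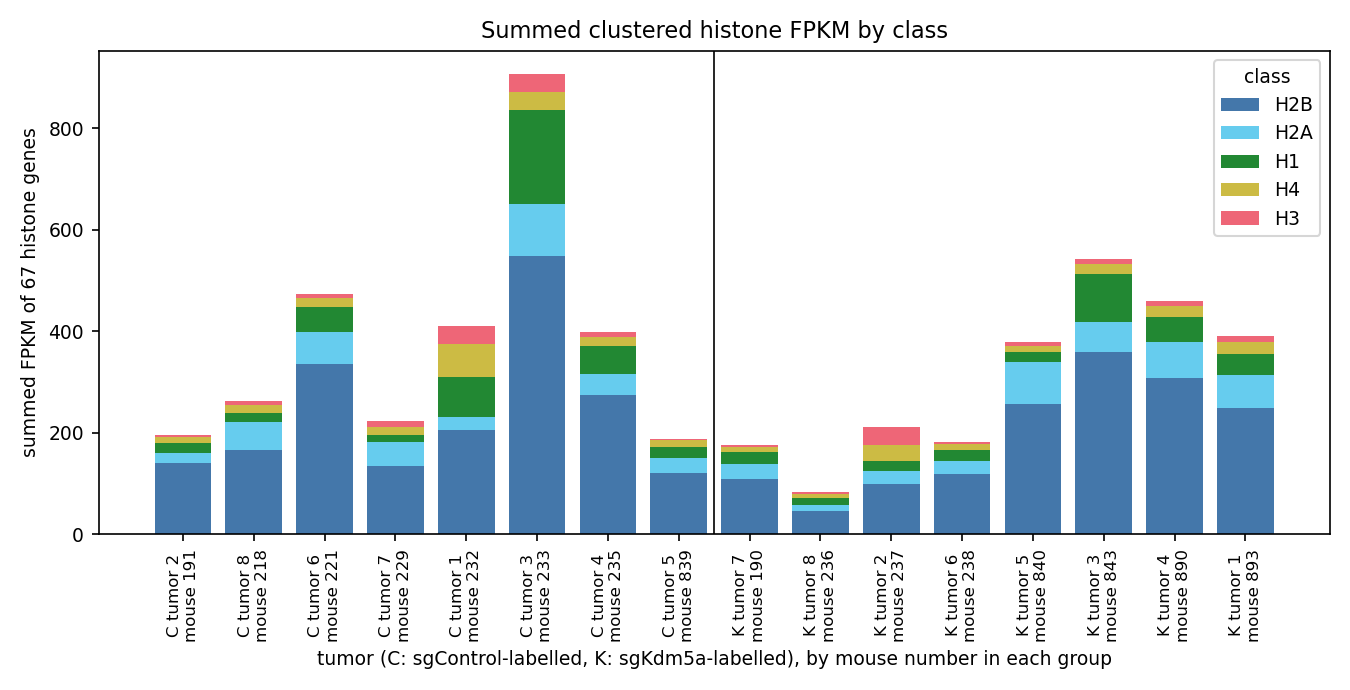
Summed FPKM of the 67 clustered histone genes in each tumor, stacked by histone class (vertical axis, FPKM). Tumors are ordered by mouse number within each label (C, sgControl-labelled, left; K, sgKdm5a-labelled, right). The tallest bar is sgControl RPP tumor 3 at 907 FPKM, H2B is the largest class in every tumor, and the 4 sgKdm5a-labelled tumors numbered 840 to 893 stand above the 4 numbered 190 to 238.

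sgControl RPP tumor 3 held the highest value of 29 of the 67 members, among them 13 of the 18 H2B genes and 8 of the 18 H2A genes. Its Hist1h1c was 158 FPKM, against 50.1 in the next sgControl-labelled tumor. Its Hist1h2bc was 166 FPKM, against 90.7, and its Hist1h1d, a further H1 gene, was 12.2 FPKM, against 2.34. The summed level of 21 S phase and DNA replication genes in that tumor, 1687 FPKM, lay within the range of the other sgControl-labelled tumors, which ran from 289 to 2019. Mki67, a marker of cycling cells, was 133 FPKM there and highest of the 16. At the other end, sgKdm5a RPP tumor 8 had the lowest Mki67 of the 16, 36.9 FPKM, and an S phase sum of 1388 FPKM. Mki67 did not follow the summed member level throughout. In sgKdm5a RPP tumor 3, which had the highest summed member level of its label, Mki67 was 54.9 FPKM, the next lowest of the 16.

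sgControl RPP tumor 1 held the highest value of 20 members, of which 10 were among the 13 H4 genes. Its values stood out in spite of its low general level: 8 of the 27 tested members were above all other tumors, against 0.389% of all tested genes. With libraries brought to the same median (median scaling), which multiplied that library by 4.96, 22 of the 27 were above all others, against 18.7% of all tested genes. Hist2h2bb (H2B) was 64.5 FPKM there and at most 5.40 in the other 15. Hist1h1a (H1) was 28.1 FPKM, against at most 3.83, Hist1h1b (H1) was 6.29, against at most 1.87, and Hist2h4 (H4) was 11.9, against at most 2.82. These members were thus many times above the other tumors. Hist3h2ba, at 22.2 FPKM, and Hist3h2a, at 12.03, were near or at the bottom of their group before scaling only. After median scaling they were 110 and 59.6 FPKM, against at most 204 and 79.9 in the other 15.

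The H3 and H4 members together made up 24.3% of the member sum in sgControl RPP tumor 1 and 31.3% in sgKdm5a RPP tumor 2 (mouse 237), against 5.1% to 14.8% in the other 14 tumors. In sgKdm5a RPP tumor 2 the H3 sum was 34.1 FPKM, against at most 12.4 in the other sgKdm5a-labelled tumors. Hist1h3a (H3) was 9.68 FPKM there, against at most 3.05 in any other tumor, whereas Hist3h2a was 5.47 FPKM, the lowest of the 16. Both libraries also had the highest summed level in their group of 120 other RNAs without a poly(A) tail, mostly small nucleolar RNAs, of which 67 were at 0 in every tumor. This sum was 9751 FPKM in sgControl RPP tumor 1, against 592 to 4014 in the other sgControl-labelled tumors. It was 5049 FPKM in sgKdm5a RPP tumor 2, against 281 to 2413 in the other sgKdm5a-labelled tumors. The part of RNA quality, or of how RNA without tails was captured, in these profiles was not tested.

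**Figure D2:**
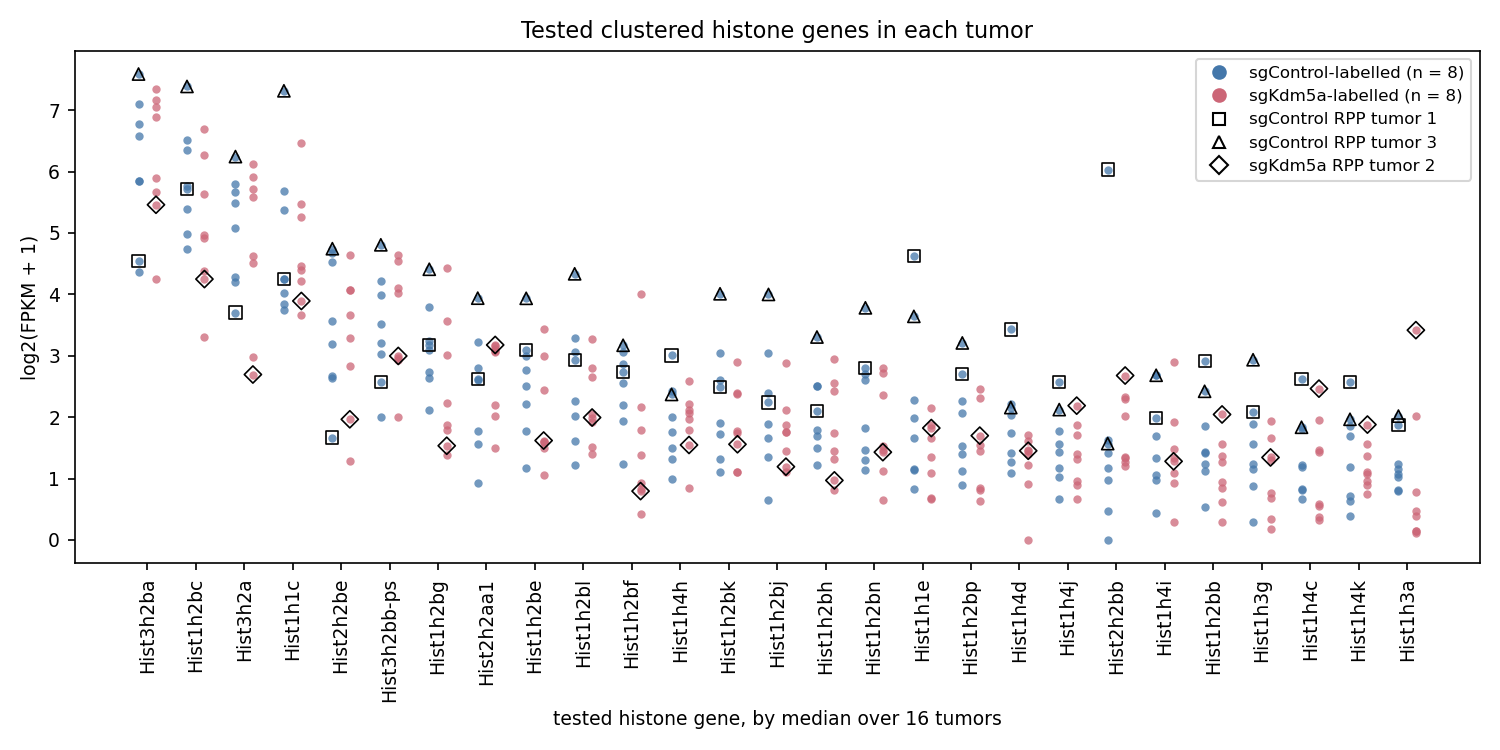
The 27 tested members, ordered by median level (horizontal axis), with each tumor's log2(FPKM + 1) as a point, sgControl-labelled in blue and sgKdm5a-labelled in red (8 each). Open marks pick out sgControl RPP tumor 1 (squares), sgControl RPP tumor 3 (triangles) and sgKdm5a RPP tumor 2 (diamonds). Triangles top most of the members at the left, and the square at Hist2h2bb (64.5 FPKM) and the diamond at Hist1h3a (9.68 FPKM) stand far above the other tumors.

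The spread between tumors was wide for genes at high levels as well. Over the 15 tumors without sgControl RPP tumor 1, the highest value was 10.7 times the lowest for Hist3h2ba, 18.6 times for Hist1h2bc, 13.7 times for Hist3h2a and 13.5 times for Hist1h1c. Among all 6997 tested genes with a median of at least 10 FPKM, the median of this fold was 2.58 and its 90th percentile 5.81. All 4 members with such a median were thus above the 90th percentile. This is a description, since genes of the family share windows and tumors.

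For the comparison of the labels, a gene was tested where 8 or more of the 16 libraries reached 1 FPKM. This kept 27 of the 67 members (40.3%) and 13123 of 24016 genes (54.6%). The 27 comprised 2 of 6 H1, 2 of 18 H2A, 15 of 18 H2B, 2 of 12 H3 and 6 of 13 H4 genes, so the comparison speaks mostly for H2B. Just inside the filter were Hist1h3a, at or over 1 FPKM in 8 libraries, and Hist1h4c in 9. Just outside were 5 members with 7 libraries, among them Hist2h2ac and Hist1h1d. Of the 40 members left untested, Hist1h3c, with the second highest median of the H3 class, ran from 0.14 to 5.15 FPKM in the sgControl-labelled and from 0.12 to 4.02 FPKM in the sgKdm5a-labelled tumors.

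No member passed the threshold, an adjusted p under 0.05 over all tested genes (limma, Benjamini-Hochberg). The background was 0.00762% of all tested genes called higher, which is 1 gene, and 0% called lower. At an unadjusted p under 0.05, 2 members were lower and 0 were higher in the sgKdm5a-labelled tumors, against 0.701% and 3.72% of all tested genes. In no member were the groups free of overlap, against 0.0838% of all tested genes with every sgKdm5a-labelled tumor higher and 0% with every such tumor lower. The members' count was also 0 after median scaling, against 0.0762% and 0.0305%, and without sgControl RPP tumor 1, against 0.0838% and 0.0152%. The log2 difference was below 0 in 23 of 27 members, against 23% of all tested genes. Its median was -0.32 over the members and 0.21 over all tested genes. The summed level of 5 stroma and endothelium markers moved the other way, with a median of 59.4 FPKM in the sgControl-labelled and 200.5 FPKM in the sgKdm5a-labelled tumors, and its part in the members' difference was not tested.

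Without sgControl RPP tumor 1 the median log2 difference was -0.32 over the members and -0.01 over all tested genes, and 24 of 27 members were below 0, against 51.8% of all tested genes. At an unadjusted limma p under 0.05, 1 member was then higher, Hist2h2bb, and 0 were lower, against 3.71% and 5.12%. After median scaling it was -0.55 over the members and 0.00 over all tested genes, and 27 of 27 were below 0, against 49.6%. In that fit 0 members were higher and 1 was lower at an unadjusted limma p under 0.05, against 4.74% and 5.2%. With both changes together it was -0.30 over the members and 0.00 over all, and 21 of 27 were below 0. Without sgControl RPP tumor 3, the tumor with most histone RNA, the median was -0.14 over the members and 0.23 over all tested genes. The members' median thus lay below that of all tested genes in each of these fits, by 0.30 to 0.55 on the log2 scale, with no single member past the threshold.

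**Figure D3:**
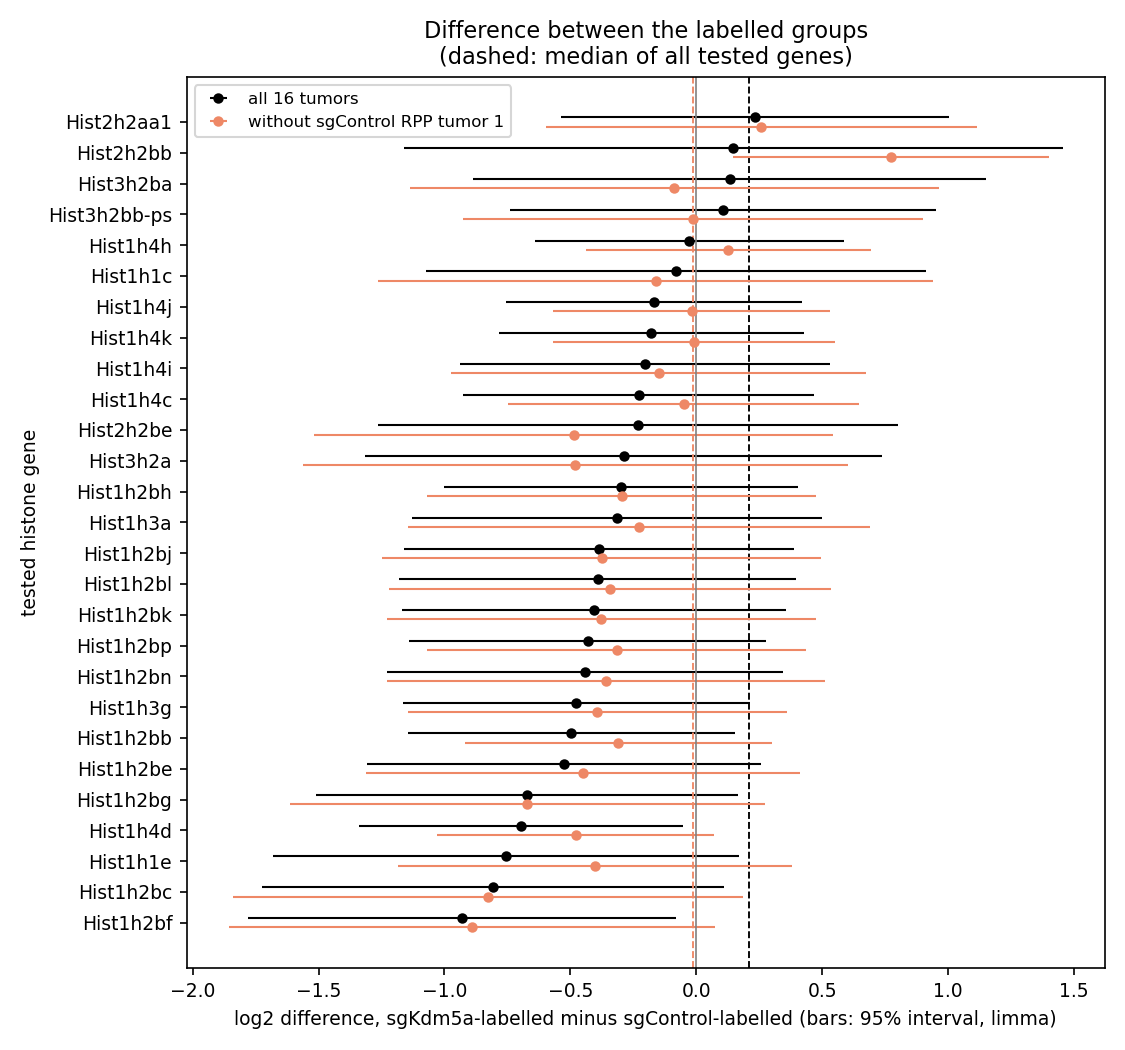
Log2 difference (horizontal axis, sgKdm5a-labelled minus sgControl-labelled, on the log2(FPKM + 1) scale) of each tested member with its 95% interval from limma, for all 16 tumors (black) and without sgControl RPP tumor 1 (orange). Dashed lines mark the median of all tested genes in each fit, 0.21 and -0.01. Most points lie left of 0, and all but a few intervals cross it.

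Among the H1 genes, Hist1h1c had a lowest, median and highest value of 12.4, 18.02 and 158 FPKM in the sgControl-labelled tumors and 11.7, 20.5 and 87.4 FPKM in the sgKdm5a-labelled tumors. The groups overlapped almost wholly, with tumor 3 of each label far above the rest (log2 difference -0.08, limma adjusted p = 0.970). Hist1h1e had 0.77, 2.55 and 23.8 FPKM, against 0.58, 1.85 and 3.42 FPKM. Its highest values were those of sgControl RPP tumors 1 and 3, and the log2 difference was -0.75 with all tumors and -0.40 without tumor 1 (limma adjusted p = 0.852 and 0.825).

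Among the H2A genes, Hist3h2a had a lowest, median and highest value of 12.03, 38.3 and 74.7 FPKM under sgControl and 5.47, 35.4 and 68.4 FPKM under sgKdm5a labels. The sgKdm5a-labelled tumors fell into values of 47.1 or more and values of 23.6 or less, with none between. The log2 difference was -0.29 (limma adjusted p = 0.900), and -0.48 without sgControl RPP tumor 1 (limma adjusted p = 0.846). Hist2h2aa1 had 0.91, 5.10 and 14.3 FPKM, against 1.82, 7.40 and 8.03 FPKM, with a log2 difference of 0.23 (limma adjusted p = 0.894). Its sign changed with the scaling, to -0.01, and most of its windows are shared with other genes.

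The H2B genes, which were most of the tested members, held 3 of the 5 members of smallest p. Hist1h2bf had a lowest, median and highest value of 1.35, 5.26 and 8.00 FPKM in the sgControl-labelled tumors and 0.33, 1.25 and 15.1 FPKM in the sgKdm5a-labelled tumors. Of the latter, 7 were at or below 3.48 FPKM and tumor 3 was the highest of all 16, so the groups overlapped. The log2 difference was -0.93 with an SE of 0.41 (limma unadjusted p = 0.033, adjusted p = 0.852), and -0.89 without sgControl RPP tumor 1 (limma unadjusted p = 0.068). Hist1h2bc had 25.8, 52.2 and 166 FPKM, against 8.92, 29.7 and 102 FPKM (log2 difference -0.81, SE 0.44, limma adjusted p = 0.852, and -0.83 without that tumor). Hist1h2bg had 3.31, 7.77 and 20.2 FPKM, against 1.62, 3.16 and 20.4 FPKM (log2 difference -0.67, SE 0.40, limma adjusted p = 0.852, and -0.67 without that tumor). In these genes 5 sgKdm5a-labelled tumors lay at or below 30.1 and 3.68 FPKM, at the low end of the sgControl-labelled range or under it, while tumor 3 of the sgKdm5a label had 102 FPKM of Hist1h2bc, within that range, and 20.4 FPKM of Hist1h2bg, just above its top. Hist3h2ba, the member of highest level, had 19.7, 75.8 and 191 FPKM, against 17.96, 88.1 and 162 FPKM, with groups that overlapped wholly (log2 difference 0.13, and -0.13 after median scaling, limma adjusted p = 0.951 and 0.954).

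Of the H3 genes, Hist1h3g had a lowest, median and highest value of 0.22, 1.65 and 6.64 FPKM under sgControl and 0.14, 1.08 and 2.84 FPKM under sgKdm5a labels (log2 difference -0.48, limma adjusted p = 0.852). Hist1h3a had 0.74, 1.18 and 3.05 FPKM, against 0.08, 0.35 and 9.68 FPKM (log2 difference -0.32, limma adjusted p = 0.869). In Hist1h3a, 6 sgKdm5a-labelled tumors were below every sgControl-labelled tumor, and tumors 2 and 3 were as high as or above the highest of them.

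Of the H4 genes, Hist1h4d had 1.12, 2.73 and 9.76 FPKM in the sgControl-labelled tumors and 0, 1.68 and 2.27 FPKM in the sgKdm5a-labelled tumors. The log2 difference was -0.70 with an SE of 0.31 (limma unadjusted p = 0.036, adjusted p = 0.852), and -0.48 without sgControl RPP tumor 1, which held the highest value (limma unadjusted p = 0.084). Hist1h4h had 0.99, 2.70 and 7.02 FPKM, against 0.79, 3.05 and 5.02 FPKM, and Hist1h4c had 0.58, 1.30 and 5.16 FPKM, against 0.26, 1.09 and 4.52 FPKM. Both overlapped almost wholly between the labels (log2 differences -0.03 and -0.23, limma adjusted p = 0.983 and 0.883).

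Within the sgKdm5a label, histone levels divided by mouse number. Mouse numbers fell into a series of 190 to 238, with 7 sgControl-labelled and 4 sgKdm5a-labelled tumors, and a series of 839 to 893, with 1 and 4. What the series stand for is not given in the sources used here, and this comparison was chosen after the values were seen, so it has no test. The summed member level was 378 to 543 FPKM in the 4 sgKdm5a-labelled tumors numbered 840 to 893 and 83.5 to 211 FPKM in the 4 numbered 190 to 238. Of the 27 tested members, 26 had a higher median in the 840 to 893 tumors, against 47.9% of all tested genes, and the median fold between the series was 2.87 over members and 0.989 over all tested genes.

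In 10 of the 27 members (37.0%) every tumor of the 840 to 893 series was above every tumor of the 190 to 238 series, against a background of 0.671% of all tested genes. The opposite held for 0 members, against 0.579%. The 10 were Hist3h2ba, Hist3h2a and Hist3h2bb-ps, which are all 3 members of the Hist3 cluster, with the H2B genes Hist1h2bc, Hist1h2bg, Hist1h2bl, Hist1h2bf, Hist1h2bk, Hist1h2bh and Hist1h2bn. After median scaling it was 8 of 27, against 0.663%, with 0 the opposite way, against 0.602%. Hist3h2ba was 117, 132, 142 and 162 FPKM in the 840 to 893 tumors and 17.96, 43.0, 49.8 and 58.8 FPKM in the 190 to 238 tumors. Hist3h2a was 47.1, 51.8, 59.5 and 68.4 FPKM, against 5.47, 6.89, 21.8 and 23.6 FPKM. Both genes, of the same cluster on chromosome 11, whose promoters are shown above, thus split the sgKdm5a-labelled tumors without overlap, and so did Hist1h2bg, at 3.68 to 20.4 FPKM against 1.62 to 2.64 FPKM.

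A single sgControl-labelled tumor, tumor 5, belongs to the 839 to 893 series, so a division within that label cannot be examined. It had 19.7 FPKM of Hist3h2ba, the lowest of its label, and those numbered 190 to 238 ran from 22.2 to 191 FPKM. Of the 10 members, it was above the median of those numbered 190 to 238 in Hist1h2bc (53.1 against 51.4 FPKM), Hist1h2bg (8.49 against 7.54) and Hist1h2bf (6.27 against 4.87). The summed level of 5 stroma and endothelium markers, of which none was at 0 everywhere, was 29.5 to 206 FPKM in the sgKdm5a-labelled 840 to 893 tumors and 196 to 412 FPKM in the 190 to 238 tumors. Its part in the histone levels was not tested. Among the sgControl-labelled tumors, tumor 5 had the highest such sum, 351 FPKM. Tumor 1 had the lowest, 13.8 FPKM, in a library that was low in general level. The S phase sum was 1233 to 1795 FPKM in the 840 to 893 tumors and 1388 to 1716 in the 190 to 238 tumors, and Mki67 was 54.9 to 75.1 and 36.9 to 88.3 FPKM, both with overlap.

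**Figure D4:**
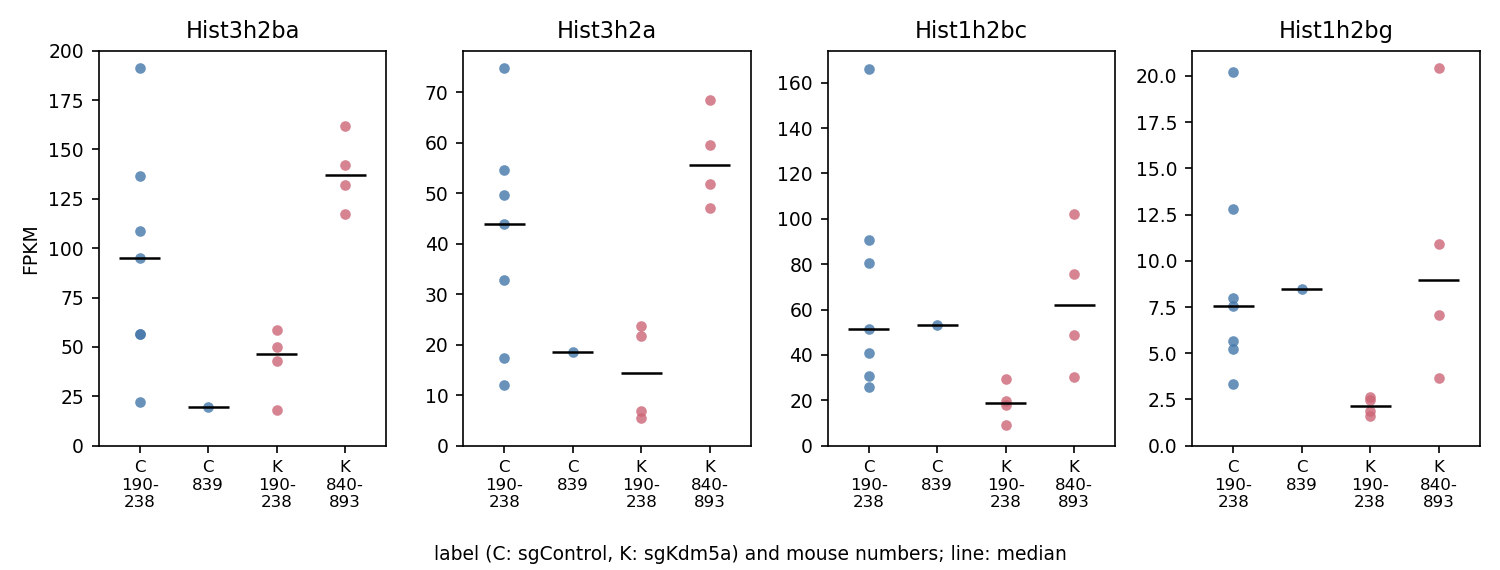
FPKM of 4 clustered histone genes by label and mouse number series (C, sgControl-labelled: 7 tumors of 190 to 238 and 1 numbered 839; K, sgKdm5a-labelled: 4 tumors of each series). Each point is a tumor, and the line is the median. The K tumors of 840 to 893 lie above those of 190 to 238 in all 4 genes, whereas the C tumors of 190 to 238 span most of the axis. All 4 genes are among the 10 of 27 tested members without overlap between these K series, so their separation follows from that choice.

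With the 190 to 238 tumors alone, 7 sgControl-labelled against 4 sgKdm5a-labelled, the members' median log2 difference was -0.94, against 0.24 over all tested genes. Its sgKdm5a-labelled tumors are the 4 with the low histone values just described, so this is a description. In a limma fit of these tumors 0 members passed the adjusted threshold, against 0.0457% of all tested genes called higher and 0% lower. Hist1h2bg and Hist1h2bf were lower in all 4 sgKdm5a-labelled tumors than in all 7 sgControl-labelled tumors of the series, 2 of 27 members against 0.0838% of all tested genes. The opposite held for 0 members, against 1.29%. After median scaling Hist3h2ba joined them, which made 3 of 27 against 1.09%, with 0 the opposite way, against 0.968%. Without sgControl RPP tumor 1, a setting chosen after the values were seen, the members' median was -0.89 and that of all tested genes -0.02. Hist1h2bg, Hist1h2bf and Hist3h2bb-ps then lay below without overlap, 3 of 27 against 1.43%, and 0 lay above, against 1.3%. The label and the series cannot be told apart for the 839 to 893 tumors, which hold a single sgControl-labelled library.

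The genes H3f3a with H3f3b, H2afz and H1f0 stood above the summed clustered genes of their class in every tumor, save H1f0 in sgControl RPP tumor 1. H3f3a and H3f3b together stood at a median of 253 times the summed level of the 12 H3 members, with the lowest ratio, 25.1, in sgControl RPP tumor 1 and the highest, 469, in sgControl RPP tumor 2. H2afz stood at a median of 10.6 times the H2A sum (5.08 to 30.6). H1f0, a linker histone of slowly dividing cells in known work, stood at a median of 10.4 times the H1 sum (0.929 in sgControl RPP tumor 1 to 19.99). All are levels per length. The H3 and H2A members share a median of 62.0% and 73.0% of their windows with other genes, and how such reads were counted is unknown. The part of this, or of how RNA without tails was captured, in the ratios was not tested.

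**Figure D5:**
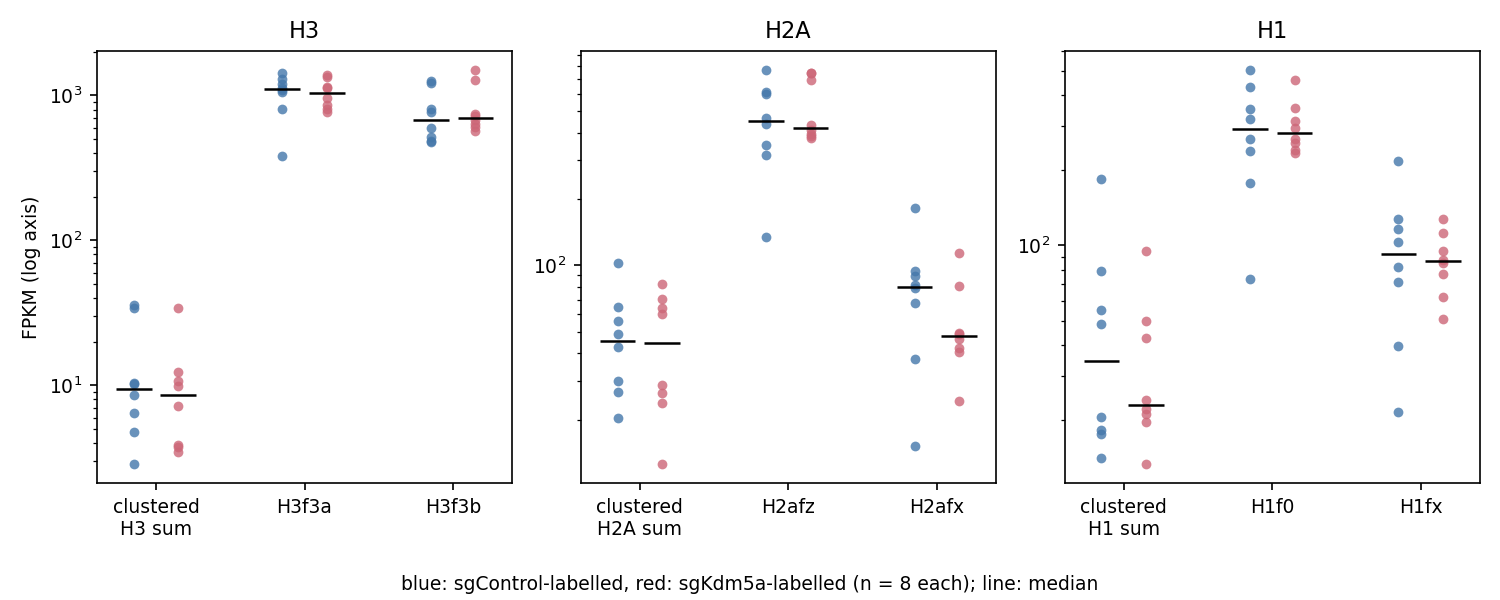
FPKM (log axis) of the summed clustered genes of H3, H2A and H1 beside single variant genes of the same class, by tumor (blue, sgControl-labelled; red, sgKdm5a-labelled; 8 each; line, median). H3f3a and H3f3b lie at a median of 253 times the H3 sum when added, and the labels overlap in every column.

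None of the 11 variant genes passed the threshold, and with all tumors none had an unadjusted limma p under 0.05. H3f3a was 1044 ± 324 FPKM (SD, n = 8) in the sgControl-labelled and 1048 ± 238 FPKM in the sgKdm5a-labelled tumors, and H3f3b was 765 ± 314 and 839 ± 345 FPKM. H2afz was 459 ± 197 and 523 ± 172 FPKM, and H2afx, whose RNA can end in a stem-loop like that of the clustered genes, was 80.8 ± 49.1 and 55.8 ± 28.2 FPKM. All 4 overlapped between the labels. The log2 difference of H2afx was -0.39, and -0.69 without sgControl RPP tumor 1 (limma unadjusted p = 0.042 without it). The median log2 difference over the 11 was 0.14, against 0.21 over all tested genes and -0.32 over the clustered members. Without sgControl RPP tumor 1 these medians were -0.12, -0.01 and -0.32.

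Genes that make, process and deposit histone RNA and protein did not pass the threshold either. All 25 genes of histone transcription and pre-mRNA processing, 19 of chaperones and deposition and 21 of S phase and DNA replication were tested. With all tumors 0 in each list had an unadjusted limma p under 0.05, against 3.72% higher and 0.701% lower over all tested genes. Their median log2 differences were 0.17, 0.13 and 0.14, and -0.07, -0.11 and -0.17 without sgControl RPP tumor 1. In that fit 3 genes of the 3 lists had a lower level at an unadjusted limma p under 0.05. Over all tested genes the share was 5.12%, so the count is near the general share. They were Nfyb, a subunit of NF-Y (log2 difference -0.30), Ccna2, a cyclin of S phase (-0.40), and Gins2, of the replicative helicase (-0.51). Slbp, which binds the stem-loop, was 83.0 ± 30.1 FPKM (SD, n = 8) in the sgControl-labelled and 78.3 ± 8.41 FPKM in the sgKdm5a-labelled tumors. Npat, the activator of histone transcription, was 8.95 ± 2.67 and 10.3 ± 1.84 FPKM. The smallest p in the 3 lists were those of Upf1, a helicase of histone RNA decay, and Ncbp1, of the cap-binding complex (log2 differences 0.39 and 0.43), of Rbbp4 and Asf1b, histone chaperones (0.43 and 0.43), and of Mcm5, of the replicative helicase, and Pola1, a DNA polymerase subunit (0.75 and -0.43). Without sgControl RPP tumor 1 these log2 differences were 0.15, 0.12, 0.10, 0.055, 0.36 and -0.56. Mki67 was 98.1 ± 27.1 and 66.1 ± 15.4 FPKM (log2 difference -0.55, and -0.59 without sgControl RPP tumor 1, limma adjusted p = 0.852 with all tumors).

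The 7 members whose human counterparts are known with polyadenylated forms were summed apart from the other 60. Of the 7, 5 were tested, none had an unadjusted limma p under 0.05, and their median log2 difference was -0.29, and -0.48 without sgControl RPP tumor 1. Their sum ran from 81.8 to 443 FPKM in the sgControl-labelled and from 31.6 to 250.5 FPKM in the sgKdm5a-labelled tumors, with sgControl RPP tumor 1 at 90.5 FPKM. The sum of the other 60 ran from 89.3 to 464 and from 51.9 to 292 FPKM, with sgControl RPP tumor 1 at 319 FPKM. In unscaled FPKM the other members were thus high in that tumor's group, while the members with known polyadenylated forms were near its bottom. That library was low in general level, and the part of this in the low rank was not tested. After median scaling, 22 of the 27 tested members there were above the other 15 tumors. Of the 5 tested members with known polyadenylated forms, Hist1h2bc (255 FPKM, against at most 178) and Hist1h2bk (22.8, against at most 16.1) were among the 22. Hist1h1c (89.4, against at most 169), Hist3h2a (59.6, against 79.9) and Hist2h2be (10.8, against 27.6) were not. Of the 17 tested RNAs among the 120 other RNAs without a poly(A) tail, 0 passed the threshold. At an unadjusted limma p under 0.05, 2 were lower and 0 higher, against 0.701% and 3.72% of all tested genes. Their median log2 difference was -0.15, against 0.21 over all tested genes. Without sgControl RPP tumor 1 these medians were 0.06 and -0.01.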

How the data were processed

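RNA of 16 mouse lung tumors was sequenced from stranded total RNA libraries, per the labels' protocols. The deposited values were read as FPKM, a unit inferred from the values, since the sheet was named for counts but holds fractions. Per the submitters' processing notes, STAR 2.5.1b, Cufflinks 2.2.1 and build mm9 were used, with no role stated for each. No source used here gives the annotation, the strand setting or the treatment of reads with several matches. Depth is unknown, so no counting intervals are given, and the spread among the 8 tumors of a group sets the precision.

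The table held 24043 entries, of which 27 with names turned into dates were left out. Columns of other samples numbered 0, and among 120 pairs of libraries none held the same values. A gene was tested where 8 or more libraries reached 1 FPKM, on log2(FPKM + 1), a scale that understates changes of low genes, with limma 3.58.1 in R 4.3.3 (trend and robust variance, two-sided, Benjamini-Hochberg over 13123 genes, threshold 0.05). Differences are sgKdm5a-labelled minus sgControl-labelled. The labels do not state that tumors of a group came from separate litters or days. The script was tested on simulated data. Median scaling, which gives every library the same median, moved the middle log2 difference over tested genes from 0.21 to 0.0022.

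Members and gene lists were chosen with earlier results of these data known. Named members were the 2 of highest median in each class, the 5 of smallest p, those nearest the filter and the testis genes, and of other lists the 2 of smallest p. Kdm5a, Slbp, Npat, H2afz, H3f3b and Mki67 were always named. Other genes were named after their values were seen. The tumor numbers 1 to 8 of the titles are shared by the groups. Same-numbered tumors correlated at -0.313 to 0.356, over 0.1 for 2 of 8 numbers, so the numbers were not taken as pairs.

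Stem-loops were searched in GENCODE vM21 transcripts, in which all 67 members matched by symbol. Promoters were those of RefSeq on GRCm38.p6, with 66 members matched to a single gene. Coordinates printed are of that build and not of mm9.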

Additional observations from a re-analysis of the deposited data

Results flagged for a closer look

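Within groups of 8, 49 sets of values were examined for a tumor whose gap to its nearest neighbour exceeded Dixon's 95% limit for its share of the group's range. This held in 20, and in each of them the tumor was the highest of its group. The limit gives a chance rate of 1 in 20 only for normally distributed values. Here it was applied to FPKM without a log scale. In Hist1h2aa, and in Hist1h1t under the sgKdm5a label, all other tumors of the group were tied, so the limit was exceeded automatically. The 20 are therefore a description and cannot be compared with a chance rate. Of the 20, 8 concern sgControl RPP tumor 3, 5 sgControl RPP tumor 1 and 3 sgKdm5a RPP tumor 2. The sets share tumors and genes.

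In sgControl RPP tumor 3 the summed FPKM of all members was 907, against 473.7 in the next tumor of its group. Its H1 sum was 184.8 FPKM, against 78.8. Single members there were Hist1h1c at 158 FPKM, Hist1h2bc at 166, Hist1h3g at 6.64, Hist1h1d at 12.2, Hist1h2ba at 4.54 and Hist1h1t at 0.67. All lay apart from the other sgControl-labelled tumors.

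In sgControl RPP tumor 1 the H4 sum was 65.2 FPKM, against 36.0 in the next tumor of its group. Hist1h4d was 9.76 FPKM, Hist1h4c 5.16, Hist1h1e 23.8 and Hist1h2aa 1.06, the last listed at 0 in every other tumor. This is the library in which Mir6236 held most of the summed FPKM.

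In sgKdm5a RPP tumor 2 the H3 sum was 34.1 FPKM, against 12.4 in the next tumor of its group. Hist1h3a was 9.68 FPKM there, against 3.05, and Hist2h2ac, an H2A gene, was 3.84 FPKM, against 1.26.

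In sgKdm5a RPP tumor 3 the H1 sum was 94.8 FPKM, against 49.9, with Hist1h1c at 87.4 FPKM, against 43.1, and Hist1h2bf at 15.1 FPKM, against 3.48. In sgKdm5a RPP tumor 4 the testis gene Hist1h1t was 0.24 FPKM, with 0 in the other sgKdm5a-labelled tumors.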

How the results depend on the processing

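The count of members past the threshold was 0 in each direction in all settings run. Over all tested genes, 1 was called higher and 0 lower. The count of higher genes was 0 with median scaling, quantile normalization, all entries in the fit, 0.1 as pseudocount, median scaling without sgControl RPP tumor 1, and 190 to 238 alone without that tumor, which was chosen after seeing the data. It was 2 with sample weights and 6 with mouse numbers 190 to 238 alone, and 0 to 2 when each tumor was left out in turn. The count of lower genes was 3 with sample weights and 0 to 1 when each tumor was left out. The members' median log2 difference ran from -0.45 to -0.14 over the left-out tumors and was -0.54 with the number series as a covariate. Relative to all tested genes it ran from -0.67 to -0.30. The log2 ratio of the group medians of the summed level was -0.16, -1.16 with 190 to 238 alone, and -0.65 to 0.20 over the left-out tumors.

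With the tumor number as a replicate block, the members' median was -0.32 again and 0 members passed, while 5 were lower at an unadjusted limma p under 0.05, against 0.663% of all tested genes. Since the numbers do not pair the tumors, and 1 of 8 control tumors correlated best with its own number, the block is given here only.

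The sign of some small log2 differences changed, and the cause was not tested. Hist2h2aa1 was -0.0074 with median scaling, -0.034 with quantile normalization, -0.10 with the number series, -0.095 with 190 to 238 alone and -0.045 with these without sgControl RPP tumor 1. Hist3h2ba was -0.13, -0.12, -0.11, -1.01 and -1.31 in these settings, -0.29 with sample weights and -0.069 with median scaling without sgControl RPP tumor 1. Hist1h4h was 0.13 with sample weights and 0.14 with the last. When each tumor was left out, Hist1h1c ran from -0.33 to 0.28, Hist3h2a from -0.48 to 0.0088, Hist3h2ba from -0.11 to 0.41 and Hist1h4h from -0.16 to 0.13. The other tested members named by the set rules kept their sign in the settings run. Of members named after their values were seen, Hist3h2bb-ps was 0.11 with all tumors and -0.14 with median scaling. Hist2h2bb was 0.15 and -0.12 in these 2 fits. FPKM with unknown depth and shared windows limit members under about 1 FPKM.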

Other observations

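Marker sums of other cell types had overlapping ranges between the labels. The summed level of 5 lung epithelium markers ran from 65.7 to 52375 FPKM in the sgControl-labelled and from 33.3 to 30540 FPKM in the sgKdm5a-labelled tumors. For 6 leukocyte markers it ran from 119.99 to 2116 and from 191 to 1332 FPKM, for 5 stroma and endothelium markers from 13.8 to 351 and from 29.5 to 412 FPKM, and for 4 erythroid markers from 187 to 1750 and from 148 to 1554 FPKM. None of these markers was at 0 in every tumor, and no marker passed the threshold (limma). All 5 stroma and endothelium markers had a higher mean log2 level under the sgKdm5a label, with a median log2 difference of 0.86, and 0.72 without sgControl RPP tumor 1. Pdgfra, a fibroblast marker, had a log2 difference of 0.86 (limma unadjusted p = 0.036, adjusted p = 0.852), and Cd79a, a B cell marker, 1.24 (limma unadjusted p = 0.020, adjusted p = 0.852). In sgControl RPP tumor 3, the tumor with most histone RNA, the stroma and endothelium sum was 58.0 FPKM.

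Annotated length past the stem-loop was set beside the level. The 22 members whose longest annotated transcript ran on for more than 100 bases had a median of 1.10 FPKM, with 11 tested, and the 22 with at most 100 bases had a median of 0.864 FPKM, with 8 tested. The highest median among those with at most 100 bases was 5.54 FPKM, that of Hist2h2aa1. The 3 members above 10 FPKM that hold a stem-loop, Hist3h2ba, Hist3h2a and Hist1h1c, all ran on for more than 100 bases.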
